A study of Sus scrofa with 3 samples.

Results

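The miR-23, miR-24 and miR-27 microRNAs (miRNAs) come from a pair of duplicated gene clusters, called a and b after their miR-23 and miR-27 copies. They were followed here in pig liver through ssc-miR-23a, ssc-miR-23b, ssc-miR-24-3p, ssc-miR-27a and ssc-miR-27b-3p (the pig prefix ssc is left out below), which are 5 of the 411 miRNA names in the count files. They were taken by name with all of their precursors, which gave 6 of the 486 rows of mature miRNA and precursor. Small RNA had been sequenced from livers of male pigs at postnatal day 90, in 1 library each of the Enshi black pig, a domestic breed of China, of the wild boar of China and of the Large White, a commercial breed from Europe. All groups share sex, age and tissue, and no treatment or genetic change is given. The labels do not say whether a library holds 1 animal or a pool. With 1 library per breed, the differences below could not be checked against replicates and have no p-value. Intervals are exact 95% intervals for counting error alone and treat each read as independent. Reads without molecular identifiers are not independent molecules, so the intervals may be too narrow.

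A miRNA is cut from a hairpin precursor, and the arm that is kept guides Argonaute proteins to messenger RNAs through its seed near the 5′ end. In mammals the a and b copies of miR-23 share their seed and differ by a base near the 3′ end, and the same holds for the copies of miR-27, while both clusters yield the same miR-24-3p. miR-23a and miR-23b repress glutaminase in human cells. miR-27a and miR-27b repress genes of lipid handling such as the nuclear receptor genes PPARG and RXRA in rodent and human cells. miR-24 represses cell cycle genes in human cells. The clusters are also known from mouse endothelium, where they take part in vessel growth. Cells of the blood vessels, stellate cells and hepatocytes all contribute RNA to a bulk liver library, so fewer cells of a type and less RNA per cell cannot be told apart.

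All 6 precursors were matched by name in the RefSeq gene table of assembly Sscrofa 11.1, which is not the build of the count files (Sscrofa10.2, per the submitters' processing notes), so it was used for neighbours only. MIR23A, MIR27A and MIR24-1 stood next to each other there and form the a cluster, after MIR181C and before ZSWIM4. MIR24-2, MIR27B and MIR23B stood next to each other and form the b cluster, inside the gene C10H9orf3. The pig table thus puts MIR24-1 with the a copies and MIR24-2 with the b copies, which is the reverse of the human numbering.

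The libraries held 7730934 (Enshi black), 7824836 (wild boar) and 7343033 (Large White) miRNA reads after repeated names were left out. The hepatocyte miRNA miR-122 took 34.2%, 39.5% and 41.4% of them in the same order, so the liver label held in every library. Of the 405 miRNAs left, 208 had a mean of at least 10 CPM, reads per 1000000 of the library total, and were compared, all 5 members among them.

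Of the miRNA reads, the members together made up 1.29% in the Enshi black library (interval 1.28 to 1.30), 1.33% in the wild boar library (1.32 to 1.34) and 0.656% in the Large White library (0.651 to 0.662). miR-23a, of the a cluster, stood at 1227 CPM of the library total in the Enshi black, 994 in the wild boar and 523 in the Large White library. Its cluster mate miR-27a stood at 841 CPM in the Enshi black, 647 in the wild boar and 326 in the Large White library. Both a copies were thus highest in the Enshi black library. miR-23b, of the b cluster, stood at 1235 CPM in the Enshi black, 1516 in the wild boar and 674 in the Large White library. miR-27b-3p stood at 4835 CPM in the Enshi black, 5885 in the wild boar and 2429 in the Large White library. Both b copies were highest in the wild boar library. miR-24-3p, made by both clusters, stood at 4760 CPM in the Enshi black, 4265 in the wild boar and 2613 in the Large White library.

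**Figure D1:**
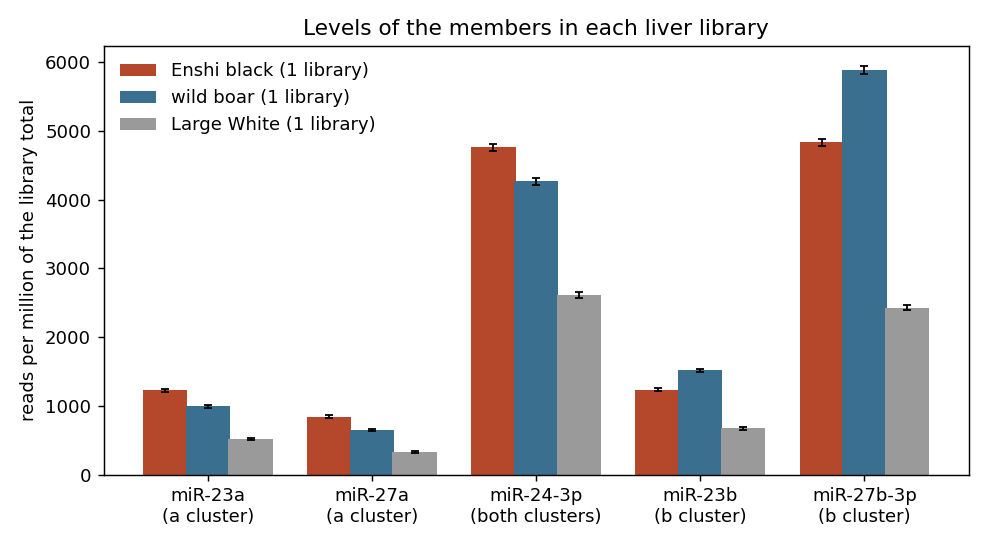
Bars give CPM of the library total for each member in the Enshi black, wild boar and Large White library (1 library each), and error bars the exact 95% counting interval. The a copies are highest in the Enshi black library (miR-23a at 1227 CPM) and the b copies in the wild boar library (miR-27b-3p at 5885 CPM), and every member is lowest in the Large White library on this scale.

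The order of the members was nearly the same in the 3 libraries. In the wild boar library it ran from miR-27b-3p over miR-24-3p, miR-23b and miR-23a to miR-27a, and no neighbours in that order had overlapping intervals. In the Enshi black library miR-27b-3p (4787 to 4885 CPM) overlapped miR-24-3p (4712 to 4809), and miR-23b (1210 to 1260) overlapped miR-23a. In the Large White library miR-24-3p (2576 to 2650) stood above miR-27b-3p (2393 to 2465). By rank among the miRNAs with a count, miR-27b-3p was number 31 of 311 in the Enshi black, 26 of 307 in the wild boar and 36 of 304 in the Large White library. miR-27a was number 74, 80 and 90 in the same order. Mature miRNAs are of nearly equal length, so no length term was used, and the bias of adaptor ligation between sequences was not measured here.

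The a copy was set against the b copy within each library, a ratio that no scaling between libraries can move. For miR-23, the a copy had 9482.5 reads and the b copy 9548.5 in the Enshi black library, a ratio of a over b of 0.993 (0.965 to 1.02). The wild boar library had 7779 reads of miR-23a and 11860 of miR-23b, a ratio of 0.656 (0.637 to 0.675). The Large White library had 3837 reads of miR-23a and 4952 of miR-23b, a ratio of 0.775 (0.743 to 0.808). As counted, the interval for miR-23 thus held 1 in the Enshi black library, and the b copy was in excess in the wild boar and Large White libraries. Reads that match both copies pull the ratio towards 1, as treated below, and the interval takes no account of them. The copies of miR-23 therefore cannot be called equal in the Enshi black library.

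For miR-27, the b copy was in excess everywhere. The a copy had 6498.5 reads and the b copy 37382.5 in the Enshi black library, which made miR-27a 14.8% of the pair and the ratio of a over b 0.174 (0.169 to 0.178). In the wild boar library miR-27a had 5059.5 reads and miR-27b-3p 46051.5, which made miR-27a 9.90% of the pair and the ratio 0.110 (0.107 to 0.113). In the Large White library miR-27a had 2393 reads and miR-27b-3p 17835, which made miR-27a 11.8% of the pair and the ratio 0.134 (0.129 to 0.140). The libraries thus kept the same order for miR-27 as for miR-23, with the a share highest in the Enshi black, next in the Large White and lowest in the wild boar library. No intervals overlapped within a family, but they take no account of reads shared by the copies.

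**Figure D2:**
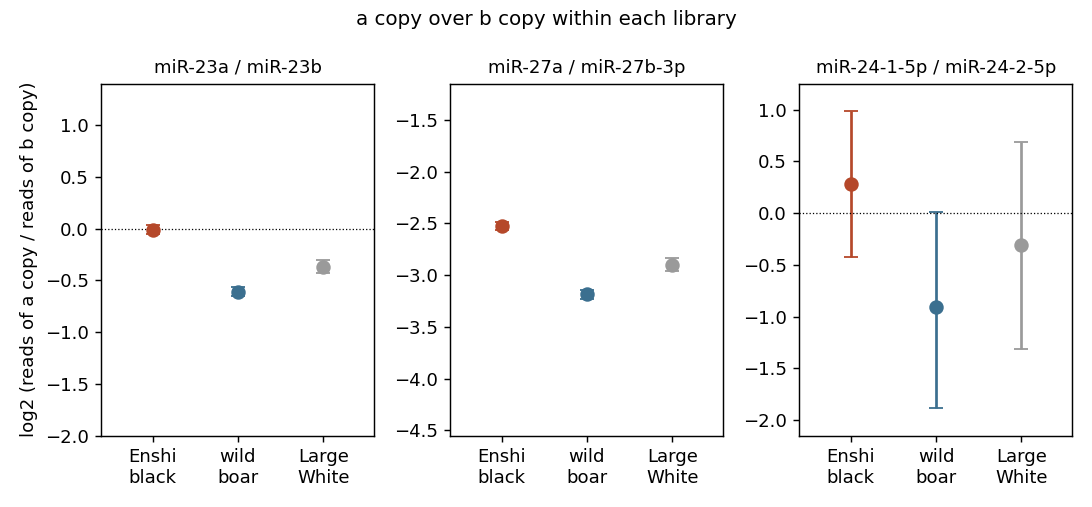
Points give log2 of the reads of the a copy over those of the b copy in each library, with exact 95% counting intervals, for miR-23, miR-27 and the 5p arms of the miR-24 precursors. The panels span equal heights around different centres, dotted lines mark equal reads where the range holds them, and each panel has the Enshi black library highest and the wild boar library lowest.

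Between libraries, the a over b ratio differed by a like factor in both families. Enshi black over Large White, the a over b ratio was 1.28-fold higher for miR-23 (1.22 to 1.35) and 1.30-fold higher for miR-27 (1.23 to 1.36). Wild boar over Large White, it was 0.847-fold for miR-23 (0.804 to 0.891) and 0.819-fold for miR-27 (0.778 to 0.863). Enshi black over wild boar, where the libraries were furthest apart, it was 1.51-fold higher for miR-23 (1.45 to 1.58) and 1.58-fold higher for miR-27 (1.52 to 1.65). The intervals of the families overlapped in each comparison, and the 3 comparisons share libraries. Adding the copies up, miR-23a plus miR-27a over miR-23b plus miR-27b-3p was 0.341 in the Enshi black (0.334 to 0.347), 0.222 in the wild boar (0.217 to 0.226) and 0.273 in the Large White library (0.266 to 0.281).

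The shifts were set beside those of all miRNAs whose names differ by the letter a or b. The files held 22 such pairs above the expression minimum, the miR-23 and miR-27 pairs included. In 7 of the other 20 pairs a copy, or both copies, held no fractions in any library, while both copies of each member pair held them. miR-199a-3p over miR-199b-3p stood at 2.0 in every library, so the pairs differ in how far shared reads fix their ratio. Of the 22, 4 (18.2%) were past 2-fold for Enshi black over Large White, 4 (18.2%) for wild boar over Large White and 3 (13.6%) for Enshi black over wild boar, and neither member pair was among them. The median size of the log2 change over the other 20 pairs was 0.52 for Enshi black over Large White, 0.48 for wild boar over Large White and 0.34 for Enshi black over wild boar. The log2 change was 0.36 for miR-23 and 0.37 for miR-27 in Enshi black over Large White, where they ranked 14 and 13 by size. Both lay below the median size there. For wild boar over Large White the log2 change was −0.24 (miR-23) and −0.29 (miR-27), at ranks 16 and 14. For Enshi black over wild boar it was 0.60 (miR-23) and 0.66 (miR-27), at ranks 7 and 6 and above the median size.

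The widest of the other pairs were past 2-fold. For Enshi black over Large White they were miR-15a with miR-15b at a log2 change of −1.46, miR-146a-5p with miR-146b at −1.37 and the 5p arms of miR-148a and miR-148b at −1.15. For wild boar over Large White they were miR-15a with miR-15b at −1.93, miR-29a with miR-29b at 1.91 and the 5p arms of miR-374a and miR-374b at −1.23. For Enshi black over wild boar they were miR-20a with miR-20b at −1.33, the 5p arms of miR-374a and miR-374b at 1.26 and miR-146a-5p with miR-146b at −1.12. Letters in miRNA names mark related sequences, not always copies of a whole cluster.

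**Figure D3:**
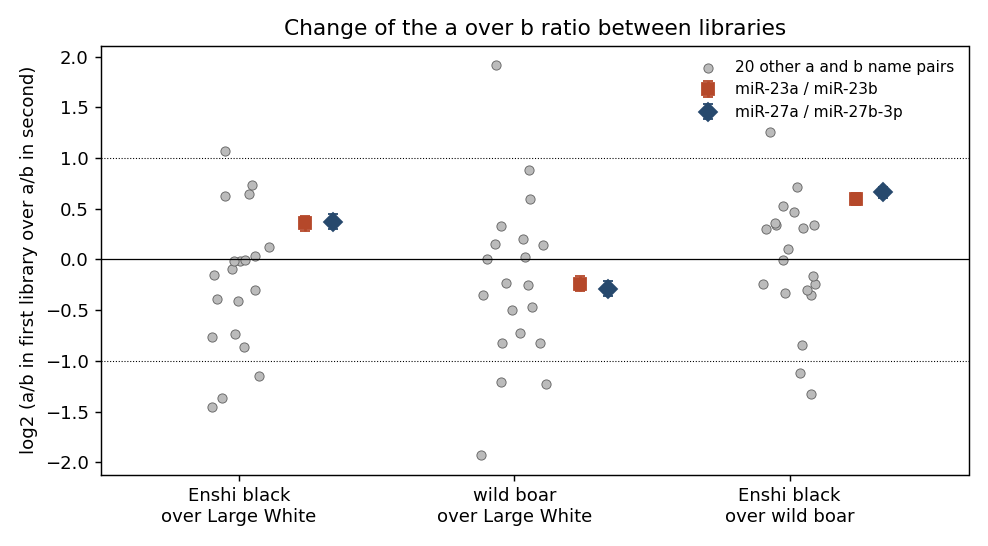
The vertical axis gives log2 of the a over b ratio in the first library over that in the second, for 3 comparisons of libraries. Grey points are the 20 other a and b name pairs, coloured symbols with exact 95% intervals are miR-23 and miR-27, and dotted lines mark 2-fold. The 2 member pairs lie side by side in each comparison and inside the range of the others.

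The near-identical copies share reads, and the files show it. In the Enshi black library the counts of miR-23a and miR-23b both ended in 0.5, as did those of miR-27a and miR-27b-3p there and in the wild boar library. An equal division of reads that match both copies pulls their ratio towards 1 and leaves their difference as it was. The difference a minus b for miR-23 was −66 reads in the Enshi black, −4081 in the wild boar and −1115 in the Large White library. For miR-27 it was −30884 reads in the Enshi black, −40992 in the wild boar and −15442 in the Large White library. As CPM of the library total, the miR-27 difference was −3995 in the Enshi black, −5239 in the wild boar and −2103 in the Large White library. By difference the b excess of miR-27 was thus smallest in the Large White library, while by ratio it was smallest in the Enshi black library. The number of shared reads is unknown, so how far the ratios stand from those of reads unique to a copy was not tested.

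Within a cluster, miR-23 and miR-27 kept close to a fixed proportion while both differed between libraries. In the a cluster, miR-23a over miR-27a was 1.46 in the Enshi black (1.41 to 1.51), 1.54 in the wild boar (1.48 to 1.59) and 1.60 in the Large White library (1.52 to 1.69). In the b cluster the order of the mates was the other way round, and miR-23b over miR-27b-3p was 0.255 in the Enshi black (0.250 to 0.261), 0.258 in the wild boar (0.252 to 0.263) and 0.278 in the Large White library (0.269 to 0.287). Between libraries these proportions differed by at most 0.14 on the log2 scale, the value of miR-23a over miR-27a in Enshi black over Large White being −0.14 (−0.22 to −0.05). The a over b ratios above differed by up to 0.66.

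miR-24-3p was listed on both precursors, with 17992 reads on mir-24-1 of the a cluster and 18809 on mir-24-2 of the b cluster in the Enshi black library. The wild boar library had 16323.5 reads on mir-24-1 and 17048.5 on mir-24-2, and the Large White library 9429 on mir-24-1 and 9758 on mir-24-2. The a cluster's precursor thus held 48.9%, 48.9% and 49.1% of miR-24-3p in the Enshi black, wild boar and Large White library. Reads of a mature sequence that both hairpins contain cannot be assigned to a cluster, so these near-equal shares do not measure what each cluster made.

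Set against its cluster mates, miR-24-3p was least abundant in the wild boar library. Its reads over the sum of miR-23a, miR-23b, miR-27a and miR-27b-3p came to 0.585 in the Enshi black (0.577 to 0.593), 0.472 in the wild boar (0.466 to 0.478) and 0.661 in the Large White library (0.649 to 0.673). That is 0.885-fold in Enshi black over Large White (0.865 to 0.905) and 0.713-fold in wild boar over Large White (0.697 to 0.730). Against miR-23a alone, miR-24-3p stood at 3.88 in the Enshi black, 4.29 in the wild boar and 5.0 in the Large White library, and against miR-23b at 3.85 in the Enshi black, 2.81 in the wild boar and 3.87 in the Large White library.

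The other arms of the precursors were rare, but those of miR-24 carry separate names and so tell the clusters apart. miR-24-1-5p, from the a cluster, had 40 reads and miR-24-2-5p, from the b cluster, 33 reads in the Enshi black library, a ratio of a over b of 1.21 (0.745 to 1.98). The wild boar library had 16 reads of miR-24-1-5p and 30 of miR-24-2-5p, a ratio of 0.533 (0.272 to 1.01), and the Large White library 17 and 21, a ratio of 0.810 (0.401 to 1.61). The libraries stood in the order found for miR-23 and miR-27, yet all 3 intervals held 1. The ratio of ratios was 2.27 for Enshi black over wild boar (0.996 to 5.26), 1.5 for Enshi black over Large White (0.633 to 3.56) and 0.659 for wild boar over Large White (0.249 to 1.74), so no difference was detectable at this depth.

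miR-27b-5p, the lesser arm of mir-27b, had 108 reads in the Enshi black, 99 in the wild boar and 60 in the Large White library. That was 0.288% of the reads of both arms in the Enshi black (Clopper-Pearson interval 0.236 to 0.348), 0.215% in the wild boar (0.174 to 0.261) and 0.335% in the Large White library (0.256 to 0.431). The wild boar share was the lowest, and its interval overlapped those of both domestic libraries. The 5p arms of miR-24 made up between 0.0979% and 0.222% of the reads listed on their precursors over the 3 libraries. Each share lay below that of miR-27b-5p in the same library. Only the interval of miR-24-1-5p in the wild boar library (0.056 to 0.159) did not overlap that of miR-27b-5p. The miR-24-3p reads in these shares cannot be assigned to a precursor, as given above.

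Between libraries, the levels were compared after scaling by trimmed mean of M-values (TMM), with miRNAs counted as higher or lower at 2-fold or more and an interval that leaves out 1. No member was past 2-fold in any comparison. The share of all 208 miRNAs past 2-fold in either direction was 13% for Enshi black over Large White, 25% for wild boar over Large White and 12.5% for Enshi black over wild boar. Of all miRNAs, 2.88% were higher and 10.1% lower in Enshi black over Large White, 11.5% higher and 13.5% lower in wild boar over Large White, and 6.25% each way in Enshi black over wild boar. The members, all 5 of them below those limits, had a median log2 ratio of 0.36 for Enshi black over Large White, 0.51 for wild boar over Large White and 0.00 for Enshi black over wild boar. Over all 208 miRNAs these medians were −0.04, −0.02 and −0.01.

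In Enshi black over Large White, the a copies stood apart from the rest, with miR-27a at a TMM ratio of 1.66 (1.58 to 1.74) and miR-23a at 1.51 (1.45 to 1.57). The b copies and miR-24-3p stood closer to 1, with miR-27b-3p at 1.28 (1.26 to 1.30), miR-23b at 1.18 (1.14 to 1.22) and miR-24-3p at 1.17 (1.15 to 1.19). In wild boar over Large White the b copies led instead, with miR-27b-3p at 1.74 (1.71 to 1.77) and miR-23b at 1.61 (1.56 to 1.67). miR-27a followed at 1.42 (1.35 to 1.49), miR-23a at 1.36 (1.31 to 1.42) and miR-24-3p at 1.17 (1.15 to 1.19). Enshi black over wild boar, miR-24-3p had a ratio of 1.0 (0.986 to 1.02), the a copies miR-27a and miR-23a 1.17 (1.12 to 1.21) and 1.11 (1.07 to 1.14), and the b copies miR-23b and miR-27b-3p 0.731 (0.711 to 0.751) and 0.737 (0.727 to 0.747).

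Scaling to library totals moved every log2 ratio up by 0.64 in Enshi black over Large White, by 0.48 in wild boar over Large White and by 0.16 in Enshi black over wild boar. Then miR-27a at 2.58-fold (2.46 to 2.70) and miR-23a at 2.35-fold (2.26 to 2.44) were past 2-fold in Enshi black over Large White, where 30.3% of all miRNAs were past it (27.4% higher, 2.88% lower), and miR-27b-3p lay just under it at 1.99-fold. In wild boar over Large White it was miR-27b-3p at 2.42-fold (2.38 to 2.47) and miR-23b at 2.25-fold (2.17 to 2.32) that were past it, against 30.8% of all miRNAs (21.6% higher, 9.13% lower), with miR-27a just under at 1.98-fold. No member was past 2-fold in Enshi black over wild boar on that scale, against 10.6% of all miRNAs (7.21% higher, 3.37% lower). Relative to the median of all 208 miRNAs, which no scaling moves, the members' median stood 0.39 higher on the log2 scale in Enshi black over Large White, 0.53 higher in wild boar over Large White and 0.01 higher in Enshi black over wild boar. All 5 members were above that median in both comparisons with the Large White library, which share that library, and 3 of 5 in Enshi black over wild boar.

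**Figure D4:**
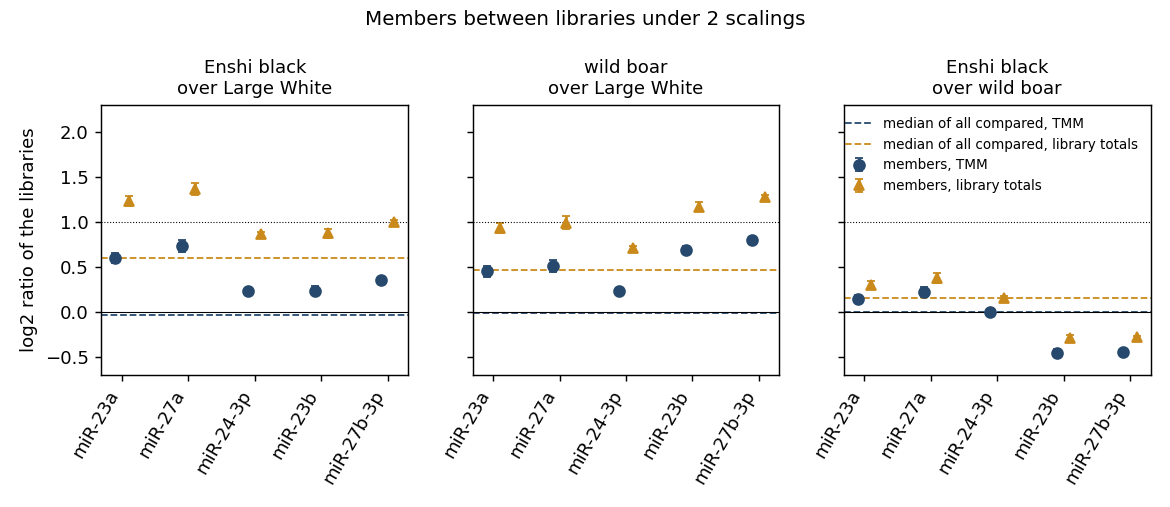
Points give the log2 ratio of each member between libraries with exact 95% counting intervals, under TMM and under library totals. Dashed lines give the median of all 208 miRNAs under the same scaling and the dotted line 2-fold. The a copies lead in Enshi black over Large White (miR-27a at 0.73 with TMM) and the b copies in wild boar over Large White (miR-27b-3p at 0.80).

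Likeness of pattern was measured as the distance between log2 CPM values centred over the 3 libraries, a description over 3 points only that no scaling between libraries changes. Among the members, the mates of a cluster were nearest to each other, at 0.096 for miR-23a and miR-27a and 0.094 for miR-23b and miR-27b-3p, while the copies of a family were 0.43 (miR-23) and 0.47 (miR-27) apart. Other miRNAs came nearer, since for each of these copies the 3 nearest other miRNAs were closer than its cluster mate. Nearest to miR-23a were miR-532-3p at 0.028, miR-100 at 0.029 and miR-181b at 0.060. Nearest to miR-27a were miR-374a-5p at 0.066, miR-532-3p at 0.070 and miR-100 at 0.082. The a copies thus shared a pair of neighbours, miR-532-3p and miR-100. Nearest to miR-23b were miR-324 at 0.071, miR-221-3p at 0.090 and miR-455-3p at 0.091, and nearest to miR-27b-3p were miR-92a at 0.045, miR-324 at 0.065 and miR-221-5p at 0.072. Nearest to miR-24-3p were miR-30b-3p at 0.035, miR-181c at 0.038, whose gene stands beside the a cluster in the RefSeq table, and miR-340 at 0.047. The median distance of the other miRNAs from a member was between 0.50 and 0.71.

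On library totals, all 9 miRNAs of the endothelial list were lowest in the Large White library, as the members were. On that scale the median log2 ratio of all 208 miRNAs was itself 0.60 in Enshi black over Large White and 0.46 in wild boar over Large White. The share of all miRNAs lowest in the Large White library was not counted. The endothelial entries summed to 61912 CPM of the library total in the Enshi black, 59304 in the wild boar and 37596 in the Large White library, and none was at 0. With TMM, 7 of 9 were above 0 on the log2 scale in Enshi black over Large White and 9 of 9 in wild boar over Large White, with medians of 0.68 and 0.43 and a median of 0.02 in Enshi black over wild boar. miR-126-3p, the defining endothelial miRNA, stood at 17159 CPM in the Enshi black, 10976 in the wild boar and 6898 in the Large White library, and at TMM log2 ratios of 0.68 in Enshi black over Large White and 0.19 in wild boar over Large White. The abundant entries miR-125b and miR-99a were nearer to level or lower with TMM. miR-125b stood at −0.28 and miR-99a at −0.32 in Enshi black over Large White, and at 0.05 and 0.02 in wild boar over Large White. The next in abundance, miR-221-3p, stood at 0.18 in Enshi black over Large White and at 0.76 in wild boar over Large White. Past 2-fold higher with TMM was 1 of 9 in Enshi black over Large White (miR-10b at 1.09), against 2.88% of all miRNAs, and 1 of 9 in wild boar over Large White (miR-222 at 1.01), against 11.5% of all miRNAs. On library totals it was 6 of 9 in Enshi black over Large White, against 27.4% of all miRNAs, and 4 of 9 in wild boar over Large White, against 21.6%.

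The 5 smooth muscle and stellate cell miRNAs, none at 0, summed to 59269 CPM in the Enshi black, 43473 in the wild boar and 29669 in the Large White library, with TMM median log2 ratios of 0.28, 0.10 and 0.17 for Enshi black over Large White, wild boar over Large White and Enshi black over wild boar. None was past 2-fold with TMM. On library totals all 5 were lowest in the Large White library too. On that scale 2 of 5 were past 2-fold higher in Enshi black over Large White, against 27.4% of all miRNAs, and 0 in wild boar over Large White, against 21.6%. The most abundant of the 5, miR-143-3p, stood at 27094 CPM in the Enshi black, 18323 in the wild boar and 12930 in the Large White library.

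The 5 hepatocyte miRNAs, none at 0, summed to 430279 CPM in the Enshi black, 494094 in the wild boar and 523196 in the Large White library, a sum that is mostly miR-122. The single entries differed in direction on library totals. miR-148a-3p was lowest in the Large White library, like the members, at 19805 CPM in the Enshi black, 20344 in the wild boar and 15639 in the Large White library. miR-194a stood at 33642 CPM in the Enshi black, 41381 in the wild boar and 41201 in the Large White library. With TMM all 5 were below 0 in both comparisons with the Large White library, and 2 of 5 were past 2-fold lower in Enshi black over Large White (miR-885-5p at −1.49 and miR-192 at −1.23), against 10.1% of all miRNAs. The part of these cell types in the members' levels was not tested.

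The 6 leucocyte miRNAs matched, of 7 listed, summed to 13253 CPM in the Enshi black, 3964 in the wild boar and 16118 in the Large White library, with none at 0. Their sum was thus lowest in the wild boar library, unlike any member's level. In Enshi black over Large White 1 of 6 was past 2-fold higher with TMM (miR-146b at 1.30, against 2.88% of all miRNAs) and 1 of 6 past 2-fold lower (miR-142-3p, the most abundant, at −1.07, against 10.1%). In wild boar over Large White 5 of 6 were past 2-fold lower, against 13.5% of all miRNAs, and in Enshi black over wild boar 5 of 6 were past 2-fold higher, against 6.25%, miR-142-3p at 1.78 among them.

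The 3 red cell miRNAs, none at 0, differed among themselves and summed to 4944 CPM in the Enshi black, 3356 in the wild boar and 4112 in the Large White library. miR-144 was past 2-fold lower with TMM in Enshi black over Large White at −1.21 and in wild boar over Large White at −1.89. miR-451 stood at −0.13 and −0.51 in the same comparisons. miR-486 was lowest in the Large White library on totals, like the members, at 158 CPM in the Enshi black, 156 in the wild boar and 113 in the Large White library. The part of blood cells in the members' levels was not tested. The 6 striated muscle miRNAs summed to only 276 CPM in the Enshi black, 190 in the wild boar and 305 in the Large White library, with 1 at 0.

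miR-27a and miR-27b-3p belong to a list of 14 miRNAs linked to lipid metabolism, of which 11 were compared. The list had a TMM median log2 ratio of 0.30 for Enshi black over Large White, 0.48 for wild boar over Large White and −0.20 for Enshi black over wild boar. These medians hold miR-27a and miR-27b-3p themselves, and also miR-758 and miR-370, whose limit is given below. They are therefore not read against the medians of all miRNAs. miR-758 at 2.70 and miR-370 at 1.46 were past 2-fold higher in Enshi black over Large White. Both were scarce, miR-758 with 24.7 CPM in the Enshi black, 34.4 in the wild boar and 2.45 in the Large White library, and miR-370 with 15.1, 12 and 3.54 CPM in the same order. Only the libraries where they are high brought their mean above 10 CPM, so no count of this list past 2-fold is read against all miRNAs. For wild boar over Large White they stood at 3.33 (miR-758) and 1.28 (miR-370), and miR-30c-5p, known in mice to lower lipoprotein secretion, was past 2-fold higher at 1.06. miR-144 was past 2-fold lower in both comparisons with the Large White library, as given above. None of the 11 was past 2-fold with TMM in Enshi black over wild boar. The list's most abundant entry was miR-122, at −0.91 in Enshi black over Large White and −0.55 in wild boar over Large White.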

How the data were processed

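Per the labels' protocols, TRIzol RNA was size-selected to 14 to 40 nucleotides and read from 1 end for 50 bases. The authors deposited expected counts per mature miRNA and precursor, with fractions in 21.2% to 24.3% of the 486 rows of a library, and RPM, the deposited count per 1000000 of the library sum, which was not used. The aligner and the counter were not given in the sources used here. How shared reads were divided is read from the values. Expected counts were summed over precursors and rounded. Rows of 6 names repeating another name's counts were left out.

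TMM factors came from edgeR 4.0.16 and other size factors from DESeq2 1.42.0, in R 4.3.3. Factors were 1.20 (Enshi black), 1.08 (wild boar) and 0.772 (Large White). Ratios between libraries have conditional-binomial intervals, shares Clopper-Pearson intervals, and ratios of ratios the exact conditional interval of an odds ratio (scipy 1.17.1). The computation was tested on simulated data.

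The members, lists and rules were chosen with earlier results of these data known. Named were the members, the other arms of their precursors, the 3 nearest patterns of each member, the 3 widest other name pairs of each comparison, and list entries past 2-fold or most abundant. Not every list entry past 2-fold was named. A mean of at least 10 CPM was required. Alternatives were other scalings, filters and thresholds, unrounded counts, the largest row and thinned libraries.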

Additional observations from a re-analysis of the deposited data

Results flagged for a closer look

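The 5p arms of the miR-24 precursors were picked out because the library of 1 breed lay on one side of equality and those of the others on the opposite side. The ratio of miR-24-1-5p (a cluster) to miR-24-2-5p (b cluster) was 1.21 in the Enshi black library, 0.533 in the wild boar library and 0.810 in the Large White library. The difference was not tested between breeds, since each has 1 library, and the interval of each ratio held 1.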

How the results depend on the processing

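The a over b ratios of miR-23 and miR-27 within libraries, and their ratios between libraries, stayed within their counting intervals with counts not rounded and with libraries thinned to the smallest total. The largest row in place of the sum leaves them as they are, since each copy has 1 row. None of these settings could move the ratios far, since rounding shifts a count by a fraction of a read and thinning leaves the expected ratio as it was. The division of shared reads, which could move them, was not varied. The comparisons of levels did depend on the scaling. The median log2 ratio of the members in Enshi black over Large White, 0.36 with TMM, was 0.99 on library totals, 0.83 on totals without miR-122, 0.43 with DESeq2 size factors and 0.40 with the largest row. In wild boar over Large White, 0.51 with TMM, it was 0.99 on library totals and 0.94 without miR-122. In Enshi black over wild boar, 0.00 with TMM, it was 0.16 on totals, 0.038 without miR-122, 0.025 with DESeq2 size factors and 0.027 with the largest row. Past 2-fold were 0 members with TMM in each comparison. On totals there were 2, and on totals without miR-122 also 2, in each comparison with the Large White library. At a 1.5-fold threshold 2 members were past it in each of those comparisons. The share of all miRNAs past 1.5-fold was not computed, so that count is not read as a result about the members. Of all miRNAs, 27 were past 2-fold in Enshi black over Large White (6 higher, 21 lower), 63 on library totals (57 higher, 6 lower), 45 without miR-122 (37 higher, 8 lower), 52 with no filter, 13 at 100 mean CPM and 2 at 4-fold. In wild boar over Large White 52 were past it (24 higher, 28 lower), 64 on totals (45 higher, 19 lower), 62 without miR-122 (43 higher, 19 lower), 85 with no filter, 31 at 100 mean CPM and 9 at 4-fold. In Enshi black over wild boar 26 were past it (13 higher, 13 lower), 22 on totals (15 higher, 7 lower), 50 with no filter, 14 at 100 mean CPM and 3 at 4-fold. No paired analysis was possible because each breed has 1 library, and no library could be left out of a comparison. The depth limits the 5p arms, with 16 to 108 reads.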

Other observations

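A list of 12 miRNAs known as regulators of TGF-beta signalling or apoptosis, of which 10 were compared, had TMM median log2 ratios of 0.11 for Enshi black over Large White, 0.01 for wild boar over Large White and 0.19 for Enshi black over wild boar. In Enshi black over Large White miR-15b was past 2-fold higher at 1.27 and miR-29b, which represses collagen genes, past 2-fold lower at −1.16, 1 of 10 each way against 2.88% higher and 10.1% lower of all miRNAs. In wild boar over Large White miR-15b was past 2-fold higher at 1.33, and miR-21, miR-29b and miR-146a-5p were past 2-fold lower at −1.17, −2.00 and −1.36, against 11.5% higher and 13.5% lower of all miRNAs. In Enshi black over wild boar miR-146a-5p was past 2-fold higher at 1.30, against 6.25% of all miRNAs.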
